A study of Xenopus tropicalis with 18 samples.

Results

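The knockdown of Sox3 at early gastrula was measured in 4 of the 18 bulk RNA-seq libraries of the study, 2 of Sox3 morphants and 2 of their own controls, all from whole *Xenopus tropicalis* embryos at stage 10.5. The members were taken by the sample titles, with no measured value involved. Sox3 morphants were wild-type embryos that received a translation-blocking morpholino antisense oligonucleotide (MO) against *sox3* in the animal hemisphere, at the 1-cell stage per the labels, while the study's methods also allow the 2-cell stage. The labels give the treatment word morpholino to all 18 libraries, while the study calls the controls wild-type embryos, so whether the controls received any injection is not settled here. The other libraries were Sox3 morphants and controls at late blastula (stage 9) and Foxi2 morphants and controls at both stages, each comparison with controls of its own. How many embryos went into a library is not given in the sources used here, and nothing says that the replicates came from separate clutches, so the p-values measure only the spread between these libraries.

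Sox3 is a SoxB1 transcription factor with an HMG box, a close relative of Sox1 and Sox2, and its RNA is loaded into the egg and enriched on the animal side. SoxB1 proteins keep ectoderm in a progenitor state from which the neural plate is formed, and they oppose the mesoderm and endoderm programs that Nodal signals start on the vegetal side. At early gastrula the ectoderm is being divided into the future neural plate, its border and the non-neural ectoderm that makes epidermis, under the control of BMP, Wnt, FGF and Notch signals.

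The 4 libraries held 20683313 to 25226901 expected counts (all 18 libraries, 12740571 to 27866261), and levels are given as CPM, counts relative to the library size after TMM scaling. At this depth 3 counts of a gene correspond to 0.116 to 0.146 CPM. Replicate number took 63.8% of the variance of log2 CPM among the 4 libraries and the MO 27.0%. The rule for this experiment pairs the libraries by replicate number, so the main edgeR quasi-likelihood fit had the number as a block, and each gene is given with its change in pair 1 and in pair 2. *sox3* itself (chr8:55346463-55348089, UCB_Xtro_10.0) had 1679 and 1208 CPM in the morphants, against 629 and 454 CPM in the controls. It rose by 1.42 ± 0.15 on the log2 scale (SE of the fit, adjusted p = 7.10e-05), by 1.42 in pair 1 and 1.41 in pair 2. A translation-blocking MO acts on the protein and not on the RNA, so this level does not test the knockdown. The study tested it by Western blot at late blastula and early gastrula, and reports that Sox3 protein was substantially depleted in morphants.

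With the block, 214 of 14427 genes tested were lower in Sox3 morphants (1.48%) and 270 were higher (1.87%), at an adjusted p under 0.05 and at least 2-fold. The lower genes had a median log2 change of -1.75, and 48 of them changed at least 8-fold. The higher genes had a median of 1.73, with 45 at least 8-fold, and stood at lower levels, with a median of 3.51 CPM over the 4 libraries against 9.76 CPM for the lower genes and 21.1 CPM for all genes tested. Both morphant libraries were below both controls for 207 of the 214 lower genes, where 17% of all genes tested were so placed, and above both for 232 of the 270 higher genes, against 17.9%. At any fold, 311 genes were lower (2.16%) and 377 higher (2.61%) at an adjusted p under 0.05. The 2 pairs moved the same way for 212 lower and 269 higher genes, and they were within 0.5 of each other on the log2 scale for 123 and 138. Over all 14427 genes tested, 9025 moved the same way and 10230 were within 0.5. The blocked fit picks genes whose pairs agree, and the calls ask for a 2-fold change in these same libraries. So neither the shared direction of the called genes nor their place outside both controls is separate support. Without the block, edgeR called 0 genes in either direction. The smallest adjusted p was then 0.171, and 795 genes had an unadjusted p under 0.05. DESeq2 called 157 lower and 112 higher genes with the block, and 122 and 66 without it. With 1 pair left out, the spread can come only from the other libraries of the study. Such fits, with pair blocks over all remaining libraries, called 129 lower and 79 higher genes without replicate 1 and 314 and 463 without replicate 2. With any single library left out and no block, edgeR called at most 2 lower and 0 higher genes.

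**Figure D1:**
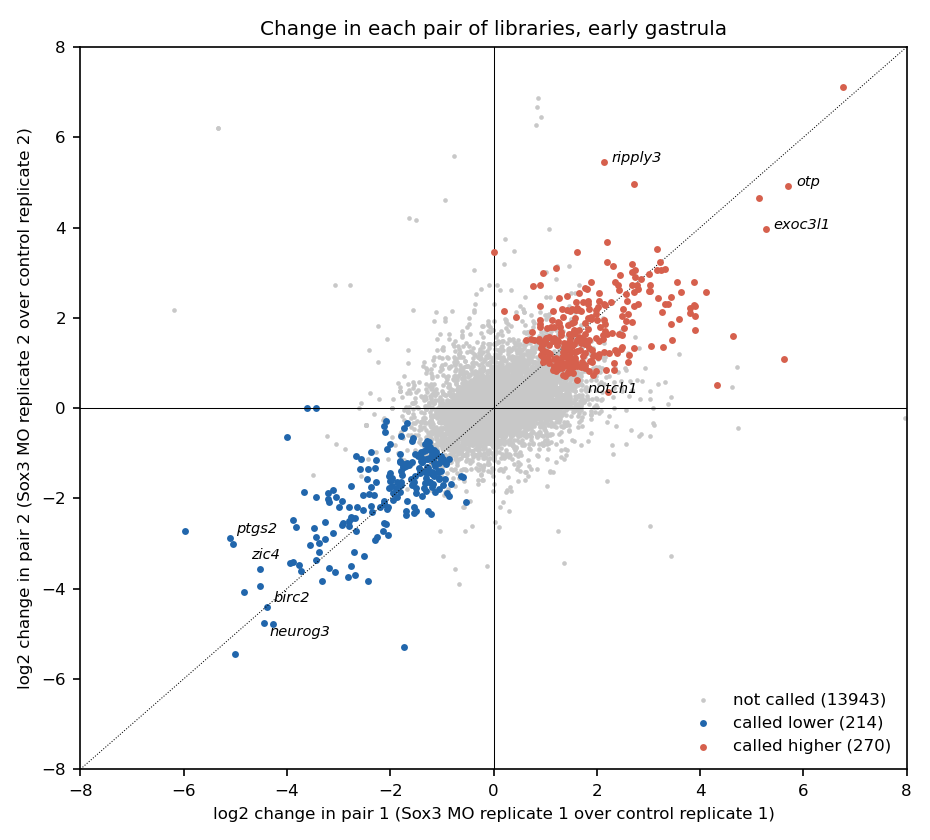
Log2 change of each gene tested in pair 1 (horizontal) and pair 2 (vertical), on log2 CPM with a prior count of 2. The 214 genes called lower (blue) and the 270 called higher (red) lie along the diagonal, and *ripply3* and *ptgs2* are among those whose pairs differ by more than 2 on the log2 scale.

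The caudal homeobox genes, which switch on posterior Hox genes, fell together. *cdx2* had 1.43 and 1.46 CPM in morphants, against 13.0 and 10.4 CPM in controls (log2 change -3.01 ± 0.26, adjusted p = 1.43e-05). *cdx1* had 1.43 and 4.34 CPM in morphants, against 13.9 and 17.9 CPM in controls, with changes of -3.20 in pair 1 and -2.02 in pair 2. *cdx4* stood at 5.08 and 6.14 CPM in morphants and 26.7 and 20.7 CPM in controls. The 3 genes together with *hoxd1*, an early Hox gene, are the 4 called members among the 8 tested of the Cdx and early Hox list. By comparison, 1.48% of all genes tested were lower. The list holds 33 genes, and those other than the 8 did not pass the count filter. Both the 4 calls and the list median therefore describe only the 8 tested. Their median fell by 2.0 on the log2 scale, where the median of all genes tested was 0.02. *hoxd1* fell to 1.24 and 1.07 CPM in morphants, against 13.3 and 16.4 CPM in controls (log2 change -3.66 ± 0.27, adjusted p = 2.88e-06).

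Of 43 transcription factors of the early neural plate that were tested, 12 fell and 0 rose, 27.9% against 1.48% of all genes, with a list median of -0.43. The 4 Cdx and Hox genes above are among these 12, and the other 8 were *zic4*, *foxd4l1.1*, *foxd4l1.2*, *lhx5*, *sall3*, *sox21*, *meis3* and *prdm14*. The zinc finger gene *zic4* had 0.853 and 0.585 CPM in morphants, against 14.4 and 7.19 CPM in controls, and *sall3*, a spalt-type zinc finger gene, 2.79 and 2.73 CPM against 10.5 and 9.55 CPM. The LIM-homeobox gene *lhx5*, a marker of the anterior neural plate, had 43.0 and 24.1 CPM in morphants and 106 and 86.2 CPM in controls, changes of -1.30 and -1.84 in the 2 pairs. For all 3 genes both morphant libraries lay below both controls. The forkhead genes *foxd4l1.1* and *foxd4l1.2*, which hold neural ectoderm in an immature state, lie side by side (chr1:129085193-129102575) and are near copies, so their split of reads is uncertain. *foxd4l1.1* was the more abundant, at 53.1 and 30.7 CPM in morphants and 112 and 81.6 CPM in controls. *meis3*, a homeobox gene of the posterior neural plate, stood at 25.8 and 11.8 CPM in morphants, against 58.2 and 38.0 CPM in controls. *prdm14*, a PR-domain zinc finger gene, was at 0.504 and 0.341 CPM, against 4.44 and 1.69 CPM.

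Among 13 Sox genes tested, *sox21* fell and *sox3* rose. Each is 7.69% of the list, where 1.48% of all genes tested were lower and 1.87% higher. *sox21*, a SoxB2 repressor, had 2.05 and 2.14 CPM in morphants, against 16.2 and 13.4 CPM in controls. Its relatives *sox2* and *sox11*, named after their values were seen, passed the adjusted p but not the 2-fold limit. *sox2* had 109 and 65.4 CPM in morphants and 174 and 117 CPM in controls (log2 change -0.75 ± 0.16, adjusted p = 0.0151), and *sox11* changed by -0.85 ± 0.17 (adjusted p = 0.00905).

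Of 15 genes tested of the proneural and Olig bHLH list, which also holds neuronal genes and Id inhibitors, 4 fell and 0 rose. The 4 are 26.7% of those tested, against 1.48% of all genes. The list median was -0.19, with -0.66 in pair 1 and -0.77 in pair 2. *neurog3*, a proneural bHLH factor, had 0.233 and 0.0974 CPM in morphants, 6 and 2 counts, against 6.89 and 4.88 CPM in controls, 163 and 110 counts. The change was -4.45 in pair 1 and -4.76 in pair 2. *elavl3*, an RNA-binding protein of neurons, had 1.43 and 1.17 CPM in morphants, against 7.52 and 4.71 CPM in controls. *myt1*, a zinc finger gene of differentiating neurons, had 2.17 and 2.09 CPM against 4.86 and 7.90 CPM. *olig3*, another bHLH gene, was below 1 CPM in all 4 libraries (0.116 and 0.146 CPM in morphants, 0.845 and 0.977 CPM in controls). *olig4* and the forkhead gene *foxb1* missed the adjusted p, at 0.0518 and 0.0528, with log2 changes of -1.65 ± 0.45 and -1.31 ± 0.35.

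Ligands, receptors and targets of the Notch pathway moved in both directions. Of 50 members tested, 5 were lower and 3 higher, where 1.48% of all genes tested were lower and 1.87% higher. The list median was 0.11, against 0.02 for all genes tested. Among the ligand genes the test was passed by 2. *dlc*, a Delta gene, had 14.1 and 11.3 CPM in morphants, against 32.4 and 30.2 CPM in controls, and *jag1*, a Jagged ligand, had 1.36 and 1.27 CPM against 5.2 and 5.24 CPM. The receptor gene *notch1* rose to 74.9 and 92.7 CPM in morphants, against 24.4 and 59.8 CPM in controls, by 1.62 in pair 1 and 0.63 in pair 2. Among the Hes genes, some of which Notch signals induce, *hes1* rose to 30.4 and 28.8 CPM in morphants, against 13.0 and 10.9 CPM in controls. *hes5.10*, *hes5.1* and *hes6.2* fell. *hes5.10* had 4.38 and 8.52 CPM in morphants and 21.7 and 19.0 CPM in controls. *hes6.2* had 2 counts in the morphants and 36 in the controls, a ratio of 18 (95% exact binomial interval of the counts 4.66 to 155, counting error only). *neurl1*, a ubiquitin ligase that acts on Notch ligands, rose to 1.94 and 3.90 CPM, against 0.845 and 1.07 CPM.

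**Figure D2:**
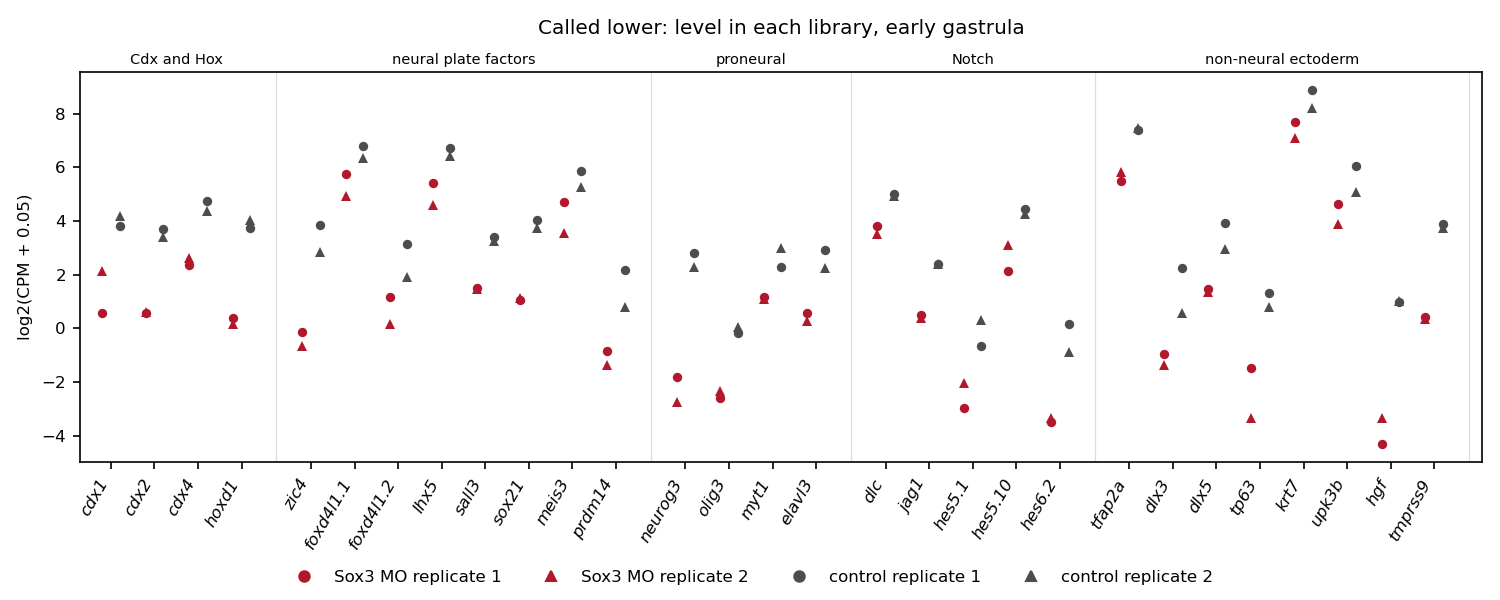
Level of each named gene in the 2 Sox3 MO libraries (red, left) and the 2 control libraries (grey, right) as log2(CPM + 0.05), grouped by role, with circles for replicate 1 and triangles for replicate 2. For every gene shown both morphant points lie below both control points, from *hgf*, with 0 and 1 counts in the morphant libraries, to *krt7* at 204 and 136 CPM. The genes were called lower in these same libraries, so this placing is no separate support.

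Of 57 genes tested of the non-neural ectoderm list, 8 were lower (14.0%) and 5 higher (8.77%), with a median of 0.03. Of all genes tested, 1.48% were lower and 1.87% higher. *tfap2a*, an AP-2 factor of epidermis and neural crest, had 45.2 and 56.6 CPM in morphants, against 166 and 177 CPM in controls (log2 change -1.76 ± 0.17, adjusted p = 3.38e-05). The homeobox genes *dlx3* and *dlx5*, which mark non-neural ectoderm and the plate border, fell with it. *dlx3* had 0.465 and 0.341 CPM in morphants, against 4.65 and 1.42 CPM in controls, and *dlx5* 2.71 and 2.53 CPM against 15.2 and 7.77 CPM. *tp63*, the p53 relative that drives the basal epidermis, had 0.310 and 0.0487 CPM in morphants and 2.45 and 1.69 CPM in controls. The keratin gene *krt7* was the most abundant of those that fell, with 204 and 136 CPM in morphants, against 474 and 293 CPM in controls. *upk3b*, a uroplakin gene, had 25.0 and 14.7 CPM against 66.8 and 33.4 CPM, and *tmprss9*, a membrane serine protease gene, 1.28 and 1.22 CPM against 14.7 and 13.3 CPM. *hgf*, the ligand of the Met receptor, had 1 count in the 2 morphant libraries and 90 in the controls, a ratio of 90.5 (95% exact interval 15.8 to 3612).

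Of the 5 genes of this list that rose, 2 are relatives of *tfap2a*: *tfap2e* had 13.3 and 21.1 CPM in morphants, against 5.79 and 6.04 CPM in controls, and *tfap2b* had 47 counts in the morphants and 3 in the controls, a ratio of 15.6 (95% exact interval 5.02 to 78.3). *ovol1*, a zinc finger gene of epithelial cells, stood at 5.5 and 2.34 CPM in morphants and 1.48 and 0.888 CPM in controls. *evpl*, the cornified envelope protein envoplakin, was at 12 and 9.11 CPM against 4.39 and 4.75 CPM. *col17a1*, a collagen of hemidesmosomes, had 0.620 and 5.07 CPM in morphants and 0.169 and 1.55 CPM in controls, so the groups overlap and only the pairs separate them. Without Sox3 MO replicate 2 and the block its change was -0.47. Of 31 genes of the plate border and neural crest, the 3 that fell were *tfap2a*, *dlx3* and *dlx5*, and 0 rose. The 3 are 9.68% of the list, against 1.48% of all genes tested. *foxi1*, which the study describes as broad in blastula ectoderm, had 10.3 and 30.9 CPM in morphants and 22.9 and 25.5 CPM in controls (adjusted p = 0.495). Its pairs went opposite ways, by -1.14 and 0.28. At late blastula *foxi1* was called lower by the edgeR fit of that stage (-2.28, adjusted p = 0.00235). The study names *foxi1* as activated by both Foxi2 and Sox3, with RT-qPCR in dissected early gastrula ectoderm. The libraries here are of whole embryos.

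In the signalling lists a minority of members changed, and the list medians lay between -0.05 and 0.23, against 0.02 for all genes tested. Of all genes tested, 1.48% were lower and 1.87% higher. In the BMP list (40 tested, median -0.05), 2 members fell and 2 rose. *bmp7.2* had 149 and 175 CPM in morphants, against 504 and 433 CPM in controls, and *szl*, the secreted feedback inhibitor Sizzled, had 2.79 and 6.33 CPM against 17.1 and 16.4 CPM. *bmp7.1* rose to 4.54 and 3.75 CPM against 1.56 and 1.78 CPM, and *bmp5* to 1.05 and 0.779 CPM against 0.127 and 0.0444 CPM. In the Nodal list (30 tested, median 0.23) the 2 called genes (6.67%) are both EGF-CFC co-receptors of Nodal and both fell. *tdgf1.3* had 46.0 and 30.3 CPM in morphants, against 177 and 112 CPM in controls, and *tdgf1.1* had 25.6 and 27.0 CPM against 58.1 and 60.2 CPM.

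Of 58 Wnt pathway genes and targets tested (median 0.11), 6 fell (10.3%) and 3 rose (5.17%), against 1.48% and 1.87% of all genes. The 6 include the 3 Cdx genes and *szl*, and the other two were *wnt5b*, a ligand that acts largely outside the β-catenin route (17 and 17.3 CPM in morphants, 42.0 and 51.3 CPM in controls), and *sfrp2*, a secreted Wnt antagonist (24.1 and 28.5 CPM against 49.9 and 66.8 CPM). The receptor genes *fzd3* and *fzd6* rose. *fzd3* had 17.5 and 16.1 CPM in morphants, against 6.17 and 8.48 CPM in controls, and *fzd6* 11.6 and 10.7 CPM against 3.93 and 5.64 CPM. *sfrp1* was the third, at 1.16 and 0.779 CPM against 0.253 and 0.133 CPM. In the FGF and ERK feedback list (37 tested, median 0.18), *dusp1*, a phosphatase of MAP kinases, fell to 49.9 and 33.6 CPM in morphants, against 111 and 78.3 CPM in controls. The immediate early genes *fos*, *junb* and *egr1* rose. *fos* had 18.9 and 19.9 CPM in morphants, against 7.31 and 7.28 CPM in controls, *egr1* 9.34 and 11.6 CPM against 3.68 and 6.26 CPM, and *junb* 1.43 and 6.04 CPM against 0.211 and 0.799 CPM. In the retinoic acid list (13 tested, median 0.02) the called gene was *cyp26a1*, which breaks retinoic acid down, at 17.4 and 23.8 CPM against 51.9 and 78.0 CPM.

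Mesoderm, endoderm and organizer genes were measured in the same whole embryos, where fewer cells of a type and less RNA per cell cannot be told apart. Of 43 mesoderm genes tested (median 0.11), 5 fell (11.6%) and 3 rose (6.98%), against 1.48% and 1.87% of all genes. The 5 were *hoxd1*, the 3 Cdx genes and *szl*. The 3 that rose were *msgn1*, a bHLH factor of the presomitic mesoderm (6.28 and 4.19 CPM in morphants, 2.49 and 1.24 CPM in controls), *foxj1*, the master factor of motile cilia (32.3 and 38.6 CPM against 15.1 and 16.9 CPM), and the laminin gene *lamb1* (19.9 and 5.11 CPM against 4.69 and 1.42 CPM). *tbxt*, the pan-mesodermal T-box factor, had 351 and 281 CPM in morphants and 422 and 398 CPM in controls (log2 change -0.38 ± 0.16, adjusted p = 0.224).

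Of 39 endoderm genes tested (median 0.26), 3 fell (7.69%) and 2 rose (5.13%), against 1.48% and 1.87% of all genes. *cdx2* and *slc5a8.1*, a monocarboxylate transporter gene (2.83 and 2.44 CPM against 18.5 and 13.6 CPM), were lower with *cdc25b*, a cell cycle phosphatase (49.6 and 29.2 CPM against 120 and 144 CPM). *plekhg5*, a gene of the bottle cells, rose to 170 and 280 CPM in morphants, against 64.5 and 144 CPM in controls, and *dmrta1*, a DM-domain factor, to 2.60 and 0.633 CPM against 0.211 and 0 CPM. The endoderm regulators *sox17a* (298 and 404 CPM against 242 and 300 CPM) and *gata6* (160 and 184 CPM against 116 and 145 CPM) missed the test, with adjusted p = 0.246 and 0.206.

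The organizer list had the highest median of the germ layer lists, 0.49 over 33 genes, against 0.02 for all genes tested. Of its members, 2 were called, both lower (*sfrp2* and *cyp26a1*, 6.06%, against 1.48% of all genes tested). At any fold, 2.16% of all genes tested passed the adjusted p as lower and 2.61% as higher. In the list 12 passed it at any fold, the 2 called and 10 others, all 10 above 0 and under 2-fold. Among those 10 was *chrd.1*, the BMP antagonist Chordin, with 362 and 344 CPM in morphants, against 207 and 251 CPM in controls (log2 change 0.63 ± 0.16, adjusted p = 0.0388). Named after their values were seen, the BMP antagonist *nog* (0.75 ± 0.18), the Wnt antagonist *dkk1* (0.77 ± 0.18), the homeobox gene *lhx1* (0.88 ± 0.18) and the secreted antagonist *cer1* (0.74 ± 0.18) also passed the adjusted p below 2-fold (log2 change ± SE).

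The markers of the germ layers were summed in each library. Over 11 ectoderm markers without *sox3*, the sum was 1041 and 941 CPM in morphants and 1462 and 1144 CPM in controls. The 10 mesoderm markers summed to 852 and 825 CPM in morphants, against 973 and 928 CPM in controls, and the 15 endoderm markers to 2576 and 3547 CPM against 2159 and 2618 CPM. Sums follow the most abundant members, such as *tbxt* with 351 and 281 CPM in morphants and 422 and 398 CPM in controls. Taken gene by gene, the mesoderm markers had a median log2 change of 0.22, with 3 higher (30.0%) and 0 lower. The endoderm markers had a median of 0.39, with 2 higher (13.3%) and 1 lower (6.67%). With *sox3*, the 12 ectoderm markers had a median of -0.10, with 1 higher (8.33%) and 3 lower (25.0%). Of all genes tested, 1.87% were higher and 1.48% lower. Of the 12 germ plasm markers 0 were called, and their sum was 1309 and 1334 CPM against 1339 and 1394 CPM (*rtn3*, the most abundant, 292 and 306 CPM against 349 and 319 CPM). The part of a shift in tissue make-up or in developmental timing in any result was not tested.

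**Figure D3:**
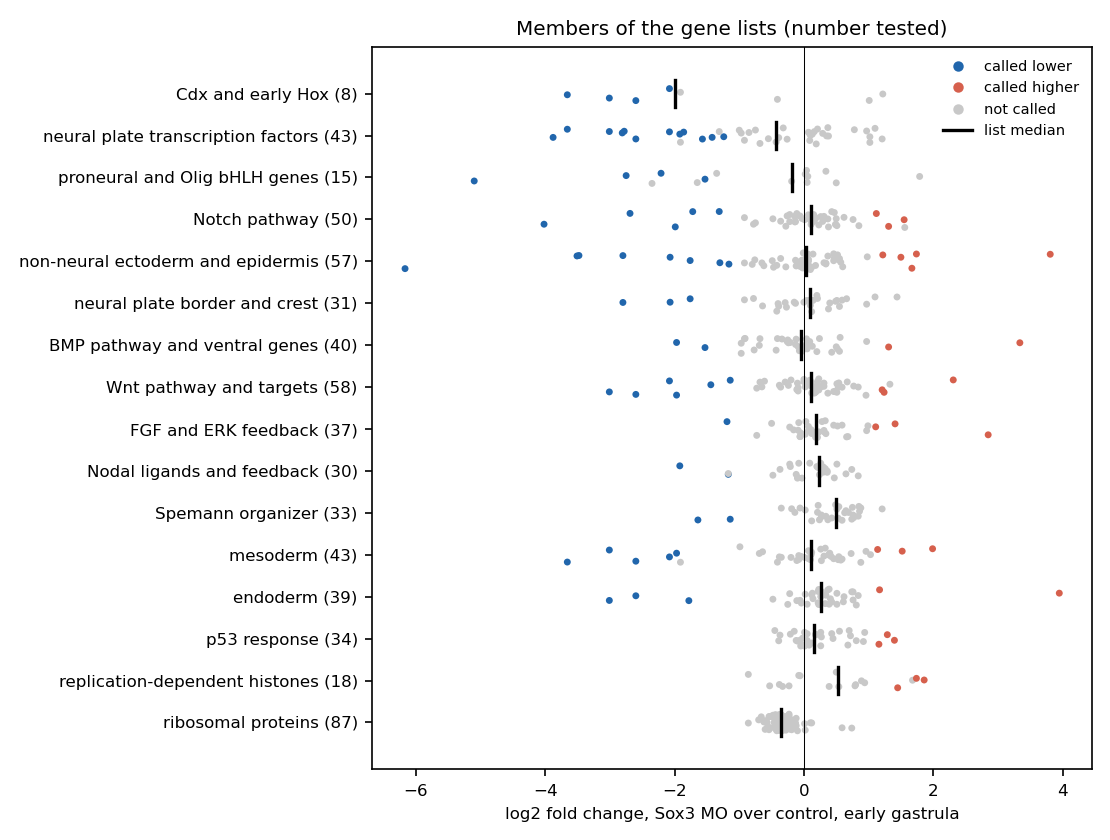
Log2 fold change, Sox3 MO over control at early gastrula, of every tested member of 16 gene lists, with called genes in blue (lower) and red (higher), other members in grey and a bar at each list's median. The Cdx and early Hox list has the lowest median of the 16 and the organizer list has its median at 0.49, and the ribosomal protein genes form a tight group around -0.35 with 0 calls.

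Large decreases were also found outside the lists. *birc2*, an inhibitor of apoptosis with ubiquitin ligase activity, had 3.14 and 1.46 CPM in morphants, against 67.1 and 32.5 CPM in controls. It fell by 4.38 in pair 1 and 4.40 in pair 2 (fit, -4.44 ± 0.22, adjusted p = 2.55e-07). *hpdl*, a dioxygenase-like gene, was among the most abundant genes that fell, with 58.5 and 50.9 CPM in morphants and 608 and 462 CPM in controls. *gatm*, the first enzyme of creatine synthesis, had 69.1 and 57.6 CPM against 482 and 329 CPM. For each of these 3 genes the pairs were within 0.5 of each other on the log2 scale. *cyb561*, a membrane cytochrome gene, had 3.45 and 4.87 CPM in morphants, against 81.8 and 58.7 CPM in controls. *sema3f*, a secreted guidance molecule, had 2.98 and 4.24 CPM against 45.2 and 45.8 CPM.

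Among further genes named for the size of their decrease, *ptgs2*, *prph* and *ag1* had pairs more than 1 apart on the log2 scale. *ptgs2*, a cyclooxygenase of prostaglandin synthesis, had 2.36 and 12.2 CPM in morphants, against 83.7 and 91.0 CPM in controls, changes of -5.10 and -2.89. The neuronal intermediate filament gene *prph* had 0.155 and 1.85 CPM in morphants and 7.94 and 15.6 CPM in controls, changes of -5.05 and -3.02. *spaca5* was at 0.116 and 0.0974 CPM against 6.46 and 8.04 CPM, and *b4galt1l*, named like a galactosyltransferase, at 0.194 and 0.0974 CPM against 5.32 and 5.02 CPM, each with 5 counts or fewer per morphant library. *gmnc*, a coiled-coil regulator of multiciliated cells, had 0.233 and 0.146 CPM against 2.83 and 2.62 CPM, and *ag1*, an anterior gradient gene known from the frog cement gland, 0.969 and 1.51 CPM against 14.9 and 9.77 CPM. *mdh1*, a malate dehydrogenase, had 4.73 and 3.26 CPM in morphants, against 46.1 and 25.1 CPM in controls.

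Several of the named genes that rose most were nearly silent in the controls. *otp*, a homeobox gene of the hypothalamus, had 15.5 and 3.85 CPM in morphants, 400 and 79 counts, against 0.211 and 0.0444 CPM in controls, 5 and 1 counts (log2 change 6.19 ± 0.41, adjusted p = 1.28e-06). *lhx8*, a LIM-homeobox gene, rose to 11.9 and 9.26 CPM, against 1.73 and 1.15 CPM, by 2.73 and 2.91 in the pairs. *exoc3l1*, related to an exocyst subunit, had 124 counts in the morphants and 1 in the controls, a ratio of 123 (95% exact interval 21.7 to 4912). *ripply3*, a co-repressor of T-box factors, had 0.853 and 7.65 CPM in morphants, against 0.127 and 0.0888 CPM in controls, with changes of 2.14 and 5.46. The mucin gene *muc1* had 2.87 and 1.22 CPM against 0.0845 and 0.133 CPM. All 5 of these genes were under 2 CPM in each control library.

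Other genes named for the size of their increase include some that are known from immune cells, a description of single genes and not of a group. *zc3h12a*, a ribonuclease that degrades cytokine mRNAs, had 9.77 and 12.2 CPM in morphants, against 1.14 and 1.47 CPM in controls, changes of 3.01 and 2.98. *csf1*, a macrophage growth factor, had 6.75 and 4.38 CPM against 0.972 and 0.400 CPM, and *hhla2*, named like a B7 family ligand, 9.85 and 4.68 CPM against 0.718 and 0.710 CPM. *socs3*, an inhibitor of cytokine signalling, had 0.310 and 12.6 CPM in morphants and 0.0422 and 1.07 CPM in controls, so that the second control library was above the first morphant library. Without Sox3 MO replicate 2 and the block its change was -0.83. Of the 24 tested members of the interferon and innate immune list, 1 rose (4.17%, against 1.87% of all genes tested) and 0 fell. It was *tnf*, with 52 counts in the morphants and 2 in the controls, a ratio of 25.9 (95% exact interval 6.81 to 219). In the cadherin and claudin list (36 tested, median 0.32) 1 rose (2.78%, against 1.87% of all genes tested) and 0 fell. The called gene was *cldn5*, a tight junction claudin, at 5.7 and 4.92 CPM in morphants and 1.31 and 2.09 CPM in controls.

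**Figure D4:**
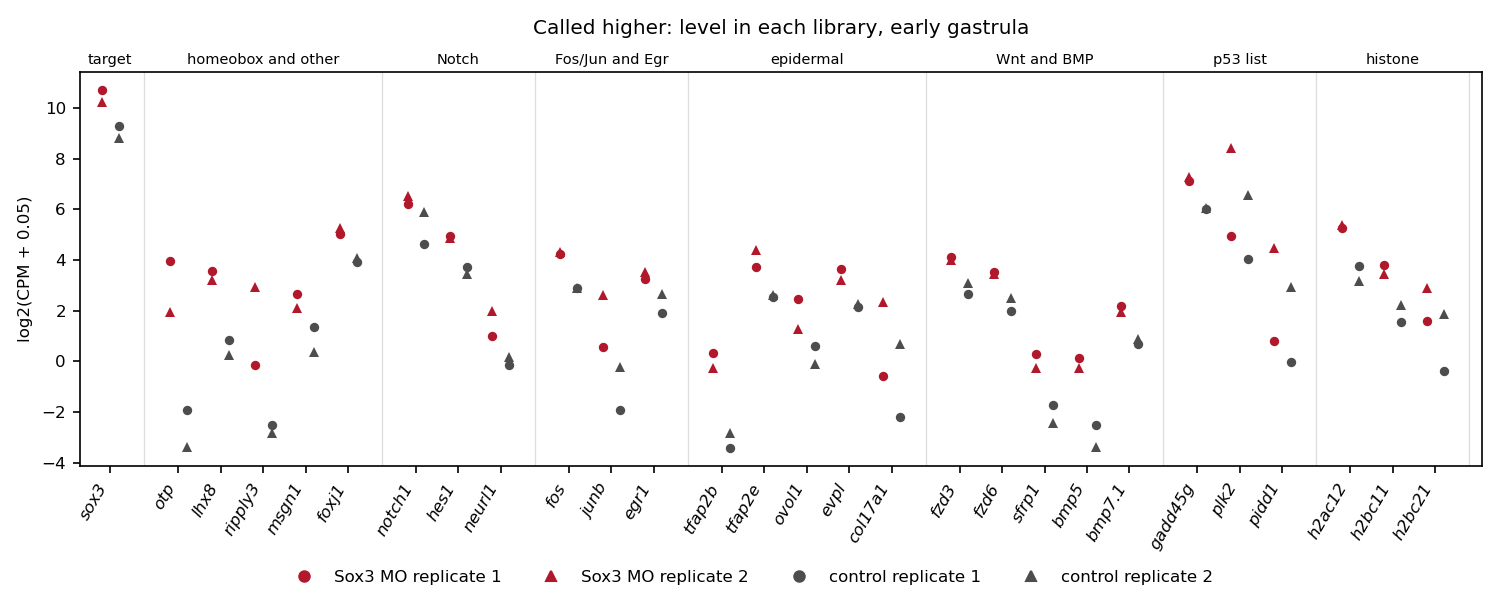
Level of each named gene in the 2 Sox3 MO libraries (red, left) and the 2 control libraries (grey, right) as log2(CPM + 0.05), with circles for replicate 1 and triangles for replicate 2. *sox3* reached 1679 and 1208 CPM in morphants, and for *col17a1*, *plk2*, *pidd1* and *h2bc21* the control triangle lies above the morphant circle.

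Part of the increase lay in genes whose level depended on the replicate number as much as on the MO. Replicates 1 and 2 differed at least 2-fold in 30.0% of the 270 higher genes, in 9.81% of the 214 lower genes and in 9.61% of all genes tested. The p53 response list shows this. Of 34 members tested, 3 rose (8.82%, against 1.87% of all genes tested) and 0 fell (median 0.15). *plk2*, a polo-like kinase that p53 induces, had 30.5 and 346 CPM in morphants and 16.4 and 95.5 CPM in controls, and *pidd1*, a death-domain protein, 1.67 and 22.0 CPM against 0.929 and 7.64 CPM. In both genes the replicate 2 libraries were the higher ones in each arm, and the groups overlap. *gadd45g*, a stress and growth arrest gene, had 138 and 156 CPM in morphants and 65.3 and 66.5 CPM in controls, with no overlap. The p53 inhibitor *mdm2* and the receptor gene *eda2r*, named after their values were seen, passed the adjusted p below 2-fold (adjusted p = 0.0155 and 0.0169). *mdm2* had 69.7 and 377 CPM in morphants and 49.9 and 143 CPM in controls, and *eda2r* 3.53 and 52.1 CPM and 1.73 and 28.7 CPM. *tp73*, the third p53 family gene, had 0.310 and 9.21 CPM in morphants and 0.127 and 2.58 CPM in controls. Without Sox3 MO replicate 2 and the block the changes turned to -0.88 for *plk2*, -1.36 for *pidd1*, -0.48 for *mdm2* and -2.11 for both *eda2r* and *tp73*. Summed over the list, the level was 2289 and 4348 CPM in morphants and 2091 and 3141 CPM in controls.

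Of 18 histone genes tested by their symbols, 3 rose (16.7%, against 1.87% of all genes tested) and 0 fell (median 0.52). Summed over the 18 genes, the level was 944 and 1119 CPM in morphants and 1198 and 1060 CPM in controls, so the sums overlap. *h2ac12* had 38.5 and 41.9 CPM in morphants, against 13.4 and 9.06 CPM in controls, *h2bc11* 13.8 and 10.8 CPM against 2.87 and 4.57 CPM, and *h2bc21* 2.95 and 7.45 CPM against 0.718 and 3.60 CPM. Histone genes are near-identical copies, most of whose mRNAs carry no poly(A) tail, so their values in poly(A)-selected libraries are uncertain. Of 87 ribosomal protein genes 0 were called. Their median was -0.35, by -0.65 in pair 1 and -0.02 in pair 2, and their sum was 7468 and 8454 CPM in morphants and 11706 and 8643 CPM in controls, so that control replicate 1 stands apart from the other three libraries. *rpl6*, the large subunit protein gene with the highest level, had 308 and 338 CPM in morphants and 448 and 365 CPM in controls. In the apoptosis and heat shock list (25 tested, median 0.05) 1 rose (4.00%, against 1.87% of all genes tested) and 0 fell. It was *hmox1*, a heme oxygenase, at 23.3 and 6.14 CPM against 7.77 and 1.47 CPM.

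Called genes were in part neighbours in the genome. Of the 214 lower genes, 29 (13.6%) stood within 100000 bases of another lower gene, in 13 runs, where 5.54% of all genes tested and placed had a lower gene that near. Of the 270 higher genes 49 (18%) stood near another higher gene, in 20 runs, against 7.44% of all genes tested and placed. *gatm* fell with *slc27a2* and a gene without a symbol (chr3:105002761-105070118), *hpdl* with *selenop2l* (chr4:90551266-90585793), and the astacin-like protease genes *astl2c* and *astl2d.1* together (chr4:13924347-13960663). *slc27a2* and *astl2c* were named after their values were seen. *h2ac12* and *h2bc11* rose with 3 genes without symbols between them (chr3:135381352-135507880). Tandem copies share reads, and so does a gene with one that overlaps it: *hpdl* and *selenop2l* overlap in the annotation, and these counts do not say from which strand a read came.

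At late blastula, with libraries and controls of its own, the same MO gave 140 lower genes (1.01%) and 43 higher (0.309%) of 13909 tested. Of the 169 genes lower at early gastrula that could be tested at late blastula, 72 were lower there too, 42.6% of these and 51.8% of the 139 late blastula genes tested at both stages, where 1.03% of all genes were lower at late blastula. For the higher genes it was 30 of 191, or 15.7%, and 71.4% of the 42 late blastula genes. The change was 0.39 ± 0.45 for *sema3f*, -0.62 for *hoxd1* and -0.34 for *cdx2* at late blastula, and larger than at early gastrula for *neurog3* (-7.74), *gatm* (-4.49) and *foxd4l1.2* (-3.01). The difference between the stages was itself past the test for 11 of 14903 genes, 6 lower at early gastrula (0.0403%) and 5 higher (0.0336%). Among the 6 were *birc2* (early gastrula minus late blastula, -3.19, adjusted p = 0.0185), *hpdl* (-2.28) and *tdgf1.3* (-1.46). *sema3f* (-4.08) and *lrrc8c* (-2.52), a subunit of volume-regulated anion channels named after its values were seen, were also among them. *slc12a3l*, a cation-chloride transporter gene named after its values were seen, changed by 1.03 at early gastrula and -1.35 at late blastula, a difference of 2.39 (adjusted p = 0.0396). Outside the 11 genes a larger value at either stage was not shown to differ.

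**Figure D5:**
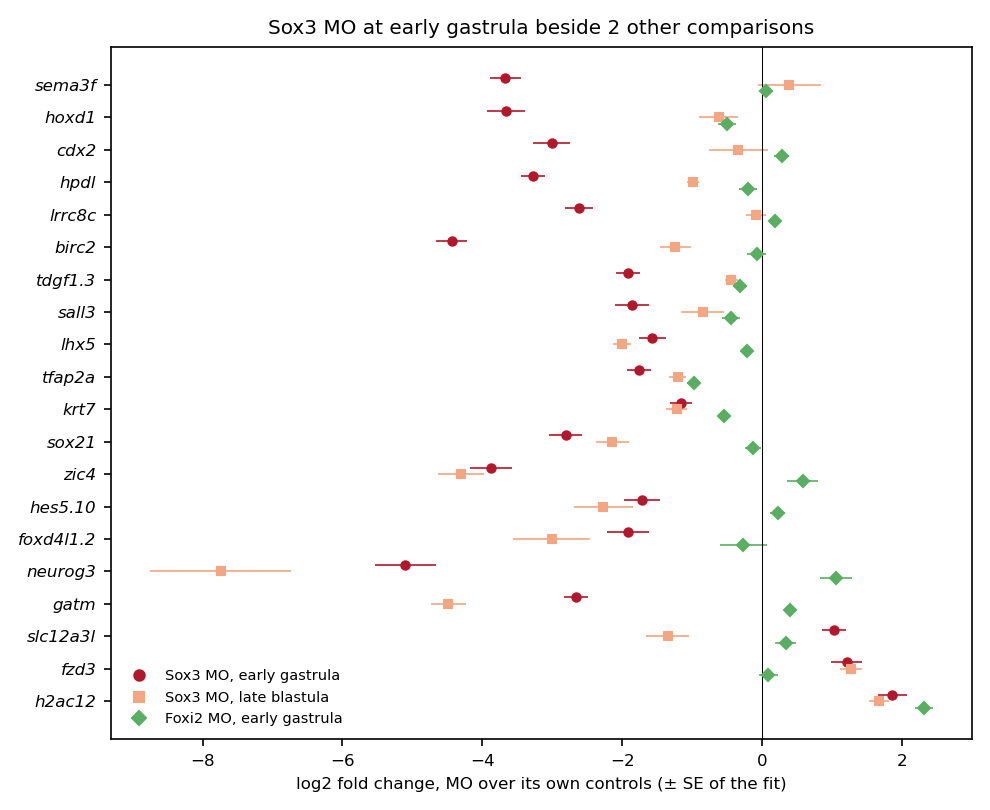
Log2 fold change with its SE for 20 genes in Sox3 morphants at early gastrula (circles), Sox3 morphants at late blastula (squares) and Foxi2 morphants at early gastrula (diamonds), each over its own controls. *sema3f*, *hoxd1* and *cdx2* are below -3 at early gastrula and above -1 in the other comparisons, while *h2ac12* is above 1 in all 3.

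Foxi2, a forkhead factor, is the other maternal regulator of ectoderm that was knocked down, and its MO gave 81 lower (0.613%) and 113 higher genes (0.855%) of 13215 at early gastrula. Of the 203 genes lower in Sox3 morphants and tested in both, 19 were lower in Foxi2 morphants too, 9.36% of these and 23.8% of the 80 Foxi2 genes. Among the 19 were *tp63* (-3.51 in Sox3 morphants, -1.55 in Foxi2 morphants), *dlx3* (-2.80 and -1.68), *prdm14* (-2.78 and -1.49), *tmprss9* (-3.48 and -1.41) and *unc45b*, a myosin chaperone gene (-1.84 and -1.84). *hes5.1* was at -2.69 ± 0.68 in Sox3 morphants and -2.74 ± 0.42 in Foxi2 morphants. Its Sox3 value rests on 2 and 4 counts in morphants and 14 and 27 in controls. Of the higher genes 16 of 175 were shared (9.14%, and 16.3% of the 98 Foxi2 genes), *h2ac12* and *h2bc11* among them. *neurog3* rose by 1.05 in Foxi2 morphants.

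The difference between the 2 MOs at early gastrula passed the test for 182 of 14933 genes, 115 lower in the Sox3 comparison (0.770%) and 67 higher (0.449%). Of the 214 genes called lower in Sox3 morphants, 213 were tested and 86 were among the 115. Both tests use the same Sox3 libraries, so this overlap follows in part from how the 214 were chosen and is no separate support. The difference, Sox3 minus Foxi2, was -6.16 for *neurog3*, -4.51 for *zic4*, -3.32 for *cdx2*, -3.19 for *hoxd1*, -2.70 for *sox21* and -1.35 for *lhx5*, and -1.45 for *bmp7.2*. For *tfap2a*, *dlx3* and *tp63* it missed the test. The study lists *olfm4* among the genes regulated by Foxi2 alone. *olfm4* stood at 37.3 and 31.0 CPM in Sox3 morphants and 70.6 and 25.1 CPM in their controls (adjusted p = 0.574). Its pairs went opposite ways, by -0.92 and 0.30. At late blastula *olfm4* was called lower in Sox3 morphants, by the edgeR fit of that stage (-1.73, adjusted p = 0.00141). In Foxi2 morphants at early gastrula *olfm4* changed by -2.32. The difference between the early gastrula changes, Sox3 minus Foxi2, was 1.99 (adjusted p = 0.0491).

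The 2-fold limit divides genes of nearly equal change. Just inside it were *asrgl1*, which fell by 1.00 on the log2 scale, and *gpr135* (-1.01) among the lower genes and *ciapin1* (1.00) and *atg16l1* (1.02) among the higher. Just outside, with an adjusted p under 0.05, were *hal.1* (adjusted p = 0.00462), *cdk9* (-0.98), *htr5a* (1.00) and *grin2c* (1.00).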

How the data were processed

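Poly(A) RNA of whole embryos was sequenced on a NovaSeq. The authors deposited RSEM expected counts per gene, unscaled, for 28850 genes on the V10.0 genome. The submitters' processing notes name RSEM 1.2.12 and Bowtie2 2.2.7, while the study's methods name STAR as the aligner, so the aligner is not settled here, and strandedness is not given in the sources used here. Coordinates come from the RefSeq table of UCB_Xtro_10.0, in which 26531 of the gene names matched. Tables of the authors' own comparisons were not used.

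Counts were rounded, filtered with filterByExpr, TMM-scaled and fitted with edgeR 4.0.16 (R 4.3.3) by the quasi-likelihood test on 4 libraries, with replicate number as a block, leaving 1 residual degree of freedom per gene. A gene was called at a Benjamini-Hochberg adjusted p under 0.05 and at least 2-fold. The SE is that of the fit, and pair changes are differences of log2 CPM with a prior count of 2. Stage and Foxi2 differences were tested as interactions with a block for each set of libraries. DESeq2 1.42.0, other scalings and filters, and left-out libraries were alternatives, and the code was tested on simulated data.

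The labels do not say what a replicate number marks. The pairing follows the rule set for this experiment, and same-numbered libraries deviated together from their group means (correlation 0.75 here, 0.75 to 0.94 over the 9 pairs of the study). With 2 libraries a group, an exact permutation test cannot go under p = 0.333.

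Genes named were *sox3*, the 20 largest changes in each direction with a symbol, at least 1 CPM and the same direction in both pairs, the 10 smallest p in each direction, called list members, genes the study names and those nearest the 2-fold limit. Of these, those not needed for a result are counted but not described, and some results are not reported here. The members, lists and tests were chosen with earlier results of these data known. Intervals cover counting error only, and reads of near-identical copies are split by RSEM, so single values of such genes are uncertain.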

Additional observations from a re-analysis of the deposited data

Results flagged for a closer look

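The Sox3 MO effect at early gastrula differed from that at late blastula, tested as an interaction in edgeR's quasi-likelihood fit with Benjamini-Hochberg adjustment, in 6 of the genes named. The difference (early gastrula minus late blastula, log2) was -4.08 for *sema3f*, -3.19 for *birc2*, -2.52 for *lrrc8c*, -2.28 for *hpdl* and -1.46 for *tdgf1.3*. It was 2.39 for *slc12a3l*. The control levels of these genes rose between the stages too, from 0.12 on the log2 scale for *tdgf1.3* to 6.48 for *sema3f*.

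The effect differed from that of the Foxi2 MO at early gastrula by the same kind of test. Of the genes that fell without a place in the lists, the difference (Sox3 minus Foxi2, log2) was -5.29 for *selenop2l*, -4.96 for *spaca5*, -4.37 for *birc2*, -4.18 for *b4galt1l*, -4.12 for *prph*, -3.80 for *cyb561*, -3.74 for *sema3f*, -3.67 for *ag1*, -3.44 for *ptgs2*, -3.25 for *gmnc*, -3.09 for *hpdl*, -3.07 for *gatm*, -2.83 for *lrrc8c*, -2.66 for *slc27a2*, -2.48 for *astl2d.1* and -1.57 for *mdh1*. Among neural genes it was -6.16 for *neurog3*, -4.51 for *zic4*, -3.32 for *cdx2*, -3.19 for *hoxd1*, -2.70 for *sox21*, -1.93 for *cdx4*, -1.83 for *myt1*, -1.41 for *sall3*, -1.35 for *lhx5*, -1.23 for *meis3* and -1.02 for *sox11*. Among signalling, epidermal and endoderm genes it was -2.25 for *jag1*, -2.08 for *tmprss9*, -1.94 for *hes5.10*, -1.92 for *wnt5b*, -1.61 for *tdgf1.3* and *dusp1*, -1.55 for *slc5a8.1*, -1.45 for *bmp7.2*, and -1.15 for *tdgf1.1* and *upk3b*. It was above 0 for *hmox1* (3.2), *csf1* (3.16), *lhx8* (3.04), *olfm4* (1.99), *atg16l1* (1.23) and *gadd45g* (1.1). *otp* (4.95) and *exoc3l1* also passed this test, but their counts in the Foxi2 libraries were too low for the Foxi2 comparison to test them. The cause of these differences was not tested.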

How the results depend on the processing

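Calls depended on the replicate block. Without the block edgeR called 0 lower and 0 higher genes, 0 stage differences and 0 Foxi2 differences, against 214, 270, 11 and 182 with it. DESeq2 without the block called 122, 66, 35 and 37, and with the block 112 higher genes and 74 stage differences. Testing every gene with a count gave 408 higher genes, 97 stage and 537 Foxi2 differences. In the fit as reported, an adjusted p under 0.01 left 158 of the 270 higher genes, 0 of the stage and 38 of the Foxi2 differences. Library size alone left 163 higher genes, and a fit of all 18 libraries gave 48 stage differences. Leaving out a pair or a library gave 0 to 314 lower and 0 to 463 higher genes, 0 to 198 stage and 0 to 668 Foxi2 differences. In the fits without a pair, the remaining pair has no spread of its own and is assumed to vary like the other libraries of the study. The same settings turned the direction of 10 named genes, whose log2 changes ranged from -0.83 to 7.07 (*socs3*), -0.47 to 4.01 (*col17a1*), -0.88 to 3.51 (*plk2*), -1.36 to 3.64 (*pidd1*), -2.11 to 5.15 (*tp73*), -0.48 to 2.14 (*mdm2*), -2.11 to 3.98 (*eda2r*), -0.31 to 2.15 (*htr5a*), -1.24 to 0.35 (*foxi1*) and -1.07 to 0.44 (*olfm4*). Of 103 named genes called, 79 were called by DESeq2 with the block, 89 with library size alone and 101 with every gene tested. Without the block edgeR called 0 of the 103. All 103 kept their direction there, which is no check, since the balanced design gives nearly the same fold change with or without the block.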
